A study of Rattus norvegicus with 6 samples.

Results

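Kinesin genes were taken as all genes of the tables whose symbol is Kif followed by a number, with or without a letter, or Kifc followed by a number. This rule found 40 of 30498 genes. Kinesins are motor proteins that walk along microtubules with energy from ATP. Dividing cells use 1 set of them to build the spindle, align chromosomes and split the cell, while neurons, which no longer divide, use others to carry vesicles, mitochondria and RNA along axons and dendrites. A brain at birth holds both kinds of cell, so both sets can be read in 1 tissue. By known role, 14 of the 40 were placed as transport kinesins, 5 as kinesins that shape neurite microtubules, 13 as mitotic kinesins and 6 as ciliary kinesins, and 2 (Kif12 and Kif28p) were placed in no class. The rule found no gene with the symbol Kif1b, a further transport kinesin, so it was not analysed here. Of 15 transport, 14 mitotic and 7 ciliary kinesins listed by role, 14, 13 and 6 were found.

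The brains came from newborn rats in a model of fetal growth restriction. The CR group had dams under caloric restriction and the control group had dams without it, with 3 libraries of polyadenylated RNA in each. Caesarean section was used for all births, with dissection directly after, and both groups carry the label whole brain. Strain, sex, extent of the restriction and the number of litters are not given in the sources used here. The labels do not say whether libraries stand for separate pups or litters, so each p-value reads against the spread of these libraries, which may be technical.

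Depth was 14030961 to 25734737 assigned reads per library, and for 1 kb of exon 3 reads equal 0.117 to 0.214 FPKM (fragments scaled by exon length and by assigned reads), a floor that covers counting error only. Of 15247 genes whose mean reached 0.5 FPKM, 33.9% passed the test between the groups (limma, adjusted p at most 0.05), 17.7% higher and 16.2% lower in CR, and the median log2 fold change was 0.01. RNA of Y-linked genes was present in 1 of 3 control and 2 of 3 CR libraries. The libraries also differed by brain region. Summed FPKM of 20 markers of the hypothalamus, thalamus, midbrain, hindbrain and cord was 5.71 to 18.4 in the control libraries and 153.6 to 201.4 in the CR libraries, with 18 of the 20 higher in CR and Pou4f2, Hoxb3 and Hoxb5 at 0 in every control library. Most of the sum in control replicates 2 and 3 was Tcf7l2, at 12.9 and 11.9 FPKM. The Hox genes of the list were far higher in CR replicate 3 than in the other CR libraries. Hoxb5, for example, was at 0.559, 0.405 and 14.4 FPKM in CR and was not called. The regional lists were chosen with earlier results of these data known, so their counts cannot test the whole brain label. Whether the control libraries hold the whole brain was not tested. Summed FPKM of 10 dorsal telencephalon markers was 506.0 to 626.5 in control and 186.4 to 291.4 in CR, with 8 of the 10 lower in CR. Every comparison below is between these same libraries, so diet and regional makeup cannot be told apart in any of them.

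Promoter windows of the kinesins were searched for letters that are known from cell cycle genes. Many genes used in mitosis carry the hexamer TTTGAA (reverse complement TTCAAA), the core of the cell cycle homology region bound by MuvB complexes, and the pentamer CCAAT (reverse complement ATTGG), the box bound by NF-Y. Of the 40 genes, 30 had a window of 250 bases before to 50 bases after the start in the RefSeq table for GRCr8. Shown here are the 150 bases before the start of 3 mitotic kinesins that hold both motifs, and of 2 transport kinesins that were lower in CR, 1 with a CCAAT box only and 1 with neither. They run 5′ to 3′ along the gene, with each match on either strand in capitals. The positions are chr8:71320585-71320734 on the minus strand for Kif23, chr20:5000779-5000928 on the plus strand for Kifc1, chr1:191080879-191081028 on the minus strand for Kif22, chr17:56185236-56185385 on the plus strand for Kif5b and chr6:32086729-32086878 on the plus strand for Kif3c.
Kif23: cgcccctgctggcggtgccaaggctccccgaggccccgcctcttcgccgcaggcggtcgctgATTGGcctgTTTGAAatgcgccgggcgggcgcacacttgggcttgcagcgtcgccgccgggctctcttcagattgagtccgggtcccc
Kifc1: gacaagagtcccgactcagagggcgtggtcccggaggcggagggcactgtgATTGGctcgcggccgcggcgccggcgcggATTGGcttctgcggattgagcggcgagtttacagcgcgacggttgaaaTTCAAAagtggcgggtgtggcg
Kif22: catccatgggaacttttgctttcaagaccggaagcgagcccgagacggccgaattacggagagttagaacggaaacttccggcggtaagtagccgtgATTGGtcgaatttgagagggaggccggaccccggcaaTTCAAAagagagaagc
Kif5b: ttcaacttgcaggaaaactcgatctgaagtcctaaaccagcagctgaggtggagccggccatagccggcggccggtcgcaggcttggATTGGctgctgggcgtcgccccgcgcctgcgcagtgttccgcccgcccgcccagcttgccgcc
Kif3c: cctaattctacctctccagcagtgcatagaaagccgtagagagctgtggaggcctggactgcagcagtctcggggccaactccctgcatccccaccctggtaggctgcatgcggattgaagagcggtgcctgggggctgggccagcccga

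In the whole windows, TTTGAA was found on either strand in 6 of 11 mitotic kinesins with a window (54.5%) and in 0 of 10 transport kinesins, against 19.4% of the 27457 genes in the promoter table. CCAAT was found in 7 of 11 mitotic kinesins (63.6%) and in 2 of 10 transport kinesins (20%), Kif5b and Kif3b, against 39.6% of all genes. Of the other classes, TTTGAA was found in 1 of 3 neurite microtubule kinesins (Kif26b) and 0 of 4 ciliary kinesins, and CCAAT in 1 of 3 and 2 of 4. These counts are small and their differences were not tested. Both motifs stood in the same window in Kif26b and in 5 mitotic kinesins (Kif22, Kif20b, Kif23, Kifc1 and Kif4a), 45.5% of the mitotic class, against 7.96% of all genes. Neither motif contains the other. In Kif23 the pair lies close together, with ATTGG at 88 to 84 bases and TTTGAA at 79 to 74 bases before the start. A match is a run of letters and not a measured binding site, and an absent match says only that these letters are not in this window.

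**Figure D1:**
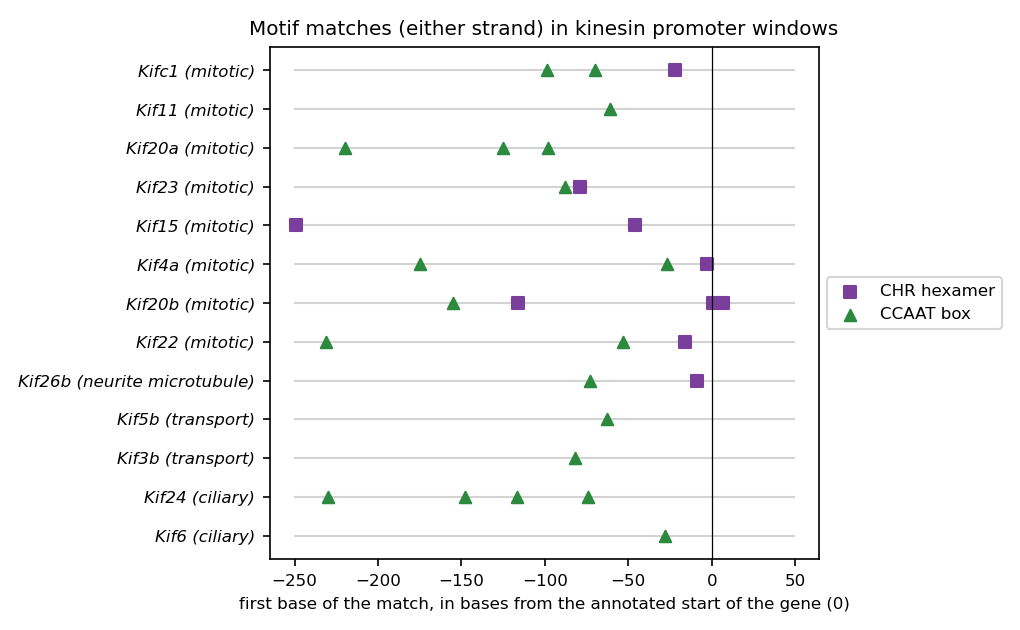
Position of each TTTGAA hexamer (square, CHR) and CCAAT box (triangle) on either strand, in bases from the annotated start (0), in the kinesin genes of the 4 classes that hold at least 1 match; grey lines are the windows from 250 bases before to 50 bases after the start. Squares lie in 6 mitotic genes and in Kif26b, and none lies in a transport gene.

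By level, most of the kinesin RNA was that of the transport motors, whose summed FPKM was 583.0 of 735.6 in the mean of the control libraries and 626.1 of 758.9 in that of the CR libraries. Kif5c (mean 131.9 FPKM over the 6 libraries) and Kif1a (117.2 FPKM) were the 2 genes above 100 FPKM, 10 genes were between 10 and 100, 19 between 1 and 10, 3 between 0.5 and 1, and 6 below 0.5 FPKM. The 6 highest genes made up 67.1% to 69.1% of the summed kinesin FPKM of a library. That sum was 728.8, 743.4 and 734.6 FPKM in control and 745.6, 743.8 and 787.3 FPKM in CR, so the highest control and the lowest CR library were almost level. Kinesins took 0.422% to 0.455% of the assigned reads of a library. The 34 genes whose mean reached 0.5 FPKM were tested. The 6 below it were Kif17, Kif6, Kif4b, Kif22, Kif28p and Kif12.

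**Figure D2:**
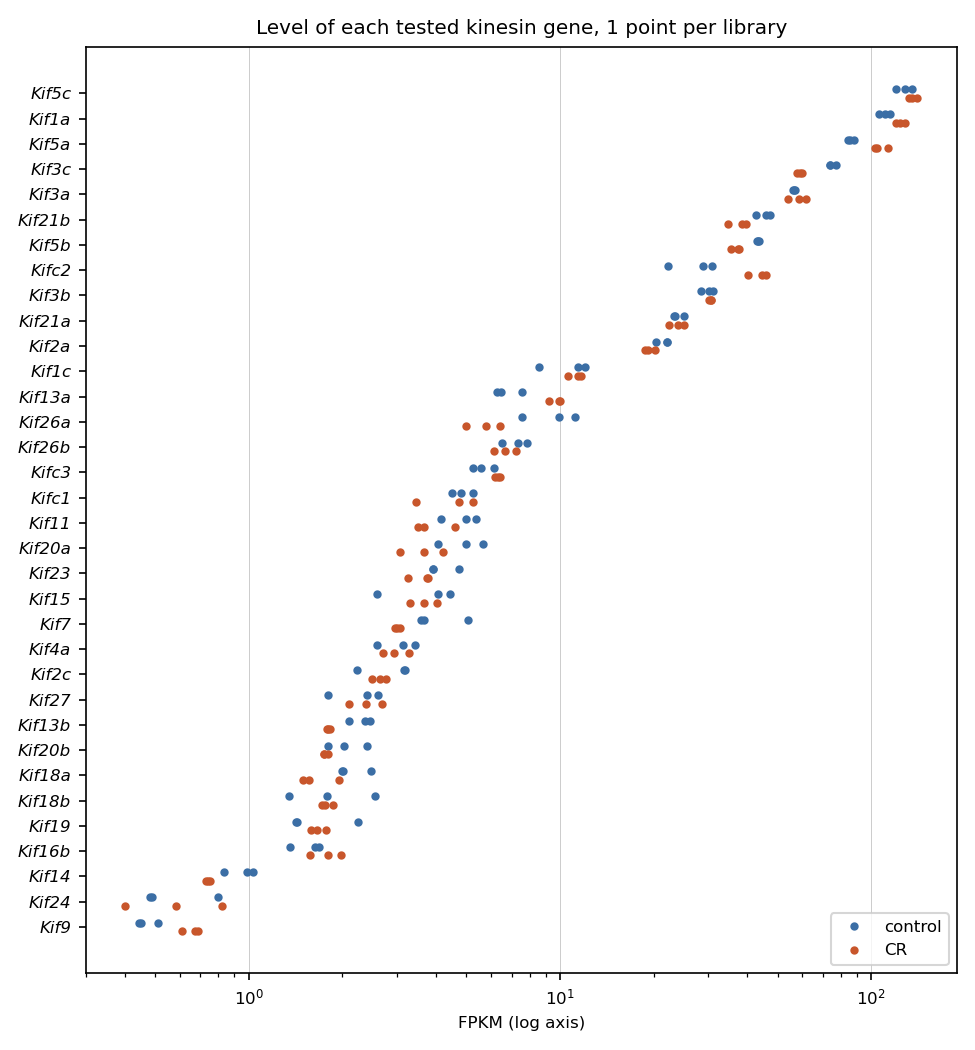
Level in FPKM on a log axis of each of the 34 tested kinesin genes, ordered by mean, with 1 point per library (blue control, orange CR). The transport genes Kif5c, Kif1a, Kif5a and Kif3c lead, and the 11 tested mitotic genes have means of 0.845 to 4.67 FPKM over the 6 libraries.

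Between the groups, 8 of 34 tested kinesins (23.5%) passed the test, beside 33.9% of all genes. Higher in CR were 4, beside 17.7% of all genes, and these were Kifc2, Kif13a, Kif5a and Kif1a. Lower were 4, beside 16.2% of all genes, and these were Kif26a, Kif3c, Kif21b and Kif5b. All 8 are transport or neurite microtubule kinesins. Control and CR values did not overlap for 17 of the 34, beside 50.3% of all genes tested. The median log2 fold change was -0.03 and the median size 0.148, beside 0.197 over all genes. The share of kinesins called was thus below that of all genes, and the share without overlap was close to it. These differences in share were not tested, and 34 genes are few.

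**Figure D3:**
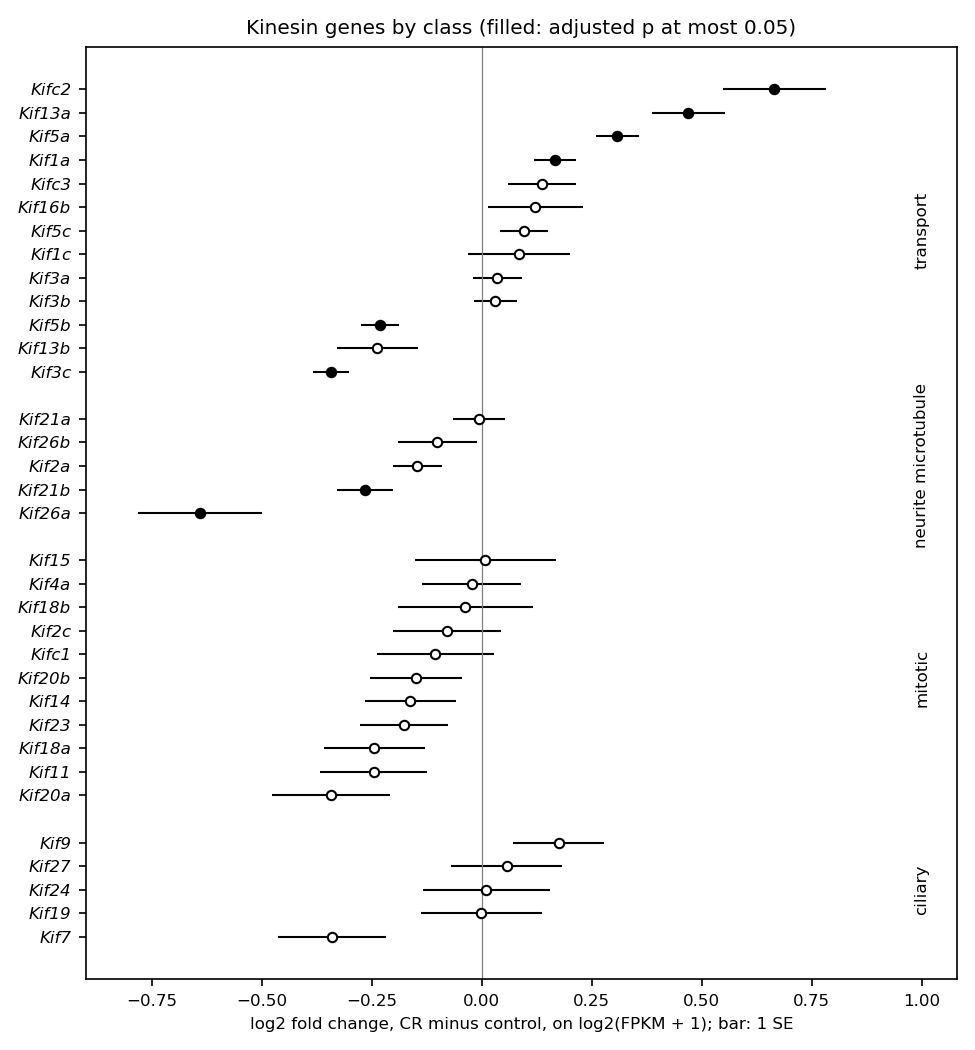
Log2 fold change, CR minus control on log2(FPKM + 1), with 1 standard error, of the 34 tested kinesin genes by class; filled points passed the test at an adjusted p of at most 0.05. The 4 filled points above 0 are transport genes, those below 0 are Kif3c, Kif5b, Kif21b and Kif26a, and none is mitotic or ciliary.

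Kinesin-1, the main motor for mitochondria, vesicles and RNA granules in axons, has 3 heavy chain genes, and they moved apart. Kif5a, which is made mostly in neurons, was at 85.7, 88.0 and 84.2 FPKM in control and 104.0, 103.2 and 112.9 FPKM in CR. Every CR library was above every control library, and the log2 fold change was 0.31 (SE 0.0488, limma adjusted p = 0.00352). On the opposite strand, Dctn2 (mean 93.1 FPKM) overlaps 2.07% of the exon length of Kif5a. An unnamed gene (6.23 FPKM) overlaps 5.71% of it, so some reads may not have been told apart. Kif5b, the form found in nearly all cell types, was at 43.2, 43.0 and 43.5 FPKM in control and 35.3, 37.5 and 37.2 FPKM in CR. Its control libraries were almost level and all CR libraries lay lower, with a log2 fold change of -0.23 (SE 0.0439, adjusted p = 0.00674). Kif5c, also neuronal and the most abundant kinesin here, was at 119.7, 134.8 and 128.2 FPKM in control and 135.5, 132.7 and 140.7 FPKM in CR. Those groups overlapped, and the log2 fold change of 0.10 did not pass the test (SE 0.054, adjusted p = 0.205).

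Within kinesin-1 the balance can be read as a share of the summed FPKM of the 3 heavy chains, a quantity that a common scaling of a library leaves unchanged. Kif5a held 33.5% ± 0.85 (SD, n = 3) of it in control and 38.1% ± 0.583 in CR. The share of Kif5b was 16.9% ± 0.609 in control and 13.1% ± 0.507 in CR, and that of Kif5c was 49.7% ± 1.33 and 48.7% ± 0.491. Kif5a over Kif5b was 1.98, 2.05 and 1.94 in control and 2.94, 2.75 and 3.03 in CR. Those ratios did not overlap and gave a two-sided exact permutation p of 0.1, the smallest that 3 against 3 libraries allow, so no ratio here can pass 0.05. It was 1 of 6 ratios of related kinesins computed.

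Kinesin-2 carries cargo into cilia and along neurites as a dimer of Kif3a with Kif3b or Kif3c, and here Kif3c alone moved of the 3. Kif3c was at 73.9, 77.1 and 73.9 FPKM in control and 59.3, 57.6 and 59.96 FPKM in CR. All CR libraries were well below all control libraries, and the log2 fold change of -0.34 had the lowest adjusted p of any kinesin (SE 0.0418, 0.00152 by limma). Kif3a, the shared partner, was at 56.4, 57.1 and 56.2 FPKM in control and 53.9, 58.5 and 61.8 FPKM in CR, with overlap and a log2 fold change of 0.03 (adjusted p = 0.662). Kif3b was at 28.4, 30.9 and 30.2 FPKM in control and 30.6, 30.7 and 30.2 FPKM in CR, also with a log2 fold change of 0.03 (adjusted p = 0.660). The share of Kif3c among the 3 was 46.5% ± 0.313 in control and 39.97% ± 1.085 in CR. Kif3c over Kif3b was 2.51 ± 0.0838 in control and 1.93 ± 0.0533 in CR without overlap (exact permutation p = 0.1), while Kif3b over Kif3a was 0.527 in both groups (p = 1.0).

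**Figure D4:**
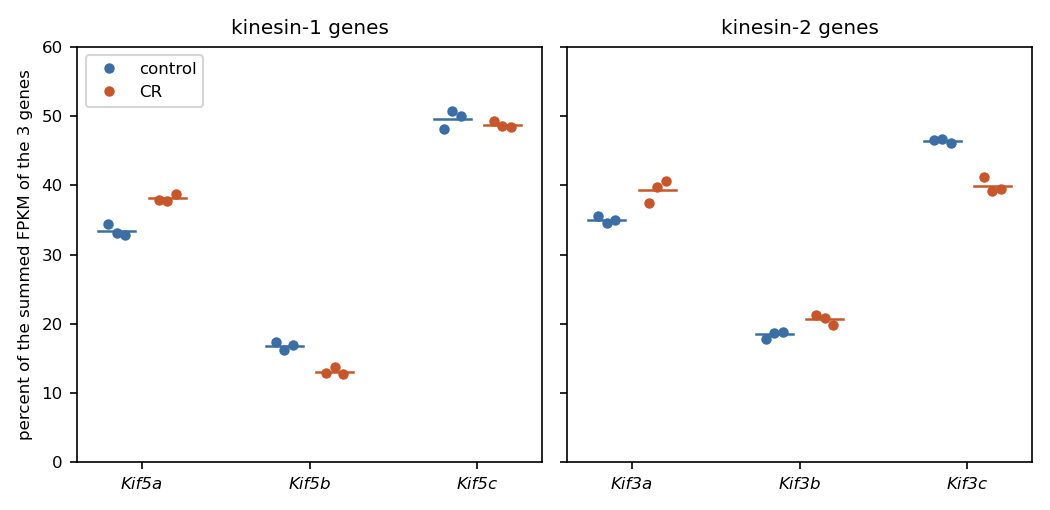
Share of each heavy chain gene in the summed FPKM of its family, in percent, with 1 point per library and a line at the mean (blue control, orange CR). Kif5a goes from 33.5% to 38.1% and Kif3c from 46.5% to 39.97%, with no overlap between the groups.

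Kinesin-3 motors carry synaptic vesicle precursors and endosomes. Kif1a, which brings synaptic vesicle precursors to the axon terminal, was at 105.8, 110.5 and 114.8 FPKM in control and 120.3, 123.4 and 128.2 FPKM in CR. The groups did not overlap and the log2 fold change was 0.17 (SE 0.0479, limma adjusted p = 0.0317). This call is the least firm of the 8. It did not pass without control replicate 1 (adjusted p = 0.0874), control replicate 2 (0.0723), CR replicate 2 (0.0879) or CR replicate 3 (0.115), nor with median-ratio scaling (0.114) or Y-linked RNA as a covariate (0.0684). Kif13a, a motor of endosomes and recycling cargo, was at 6.29, 6.44 and 7.56 FPKM in control and 9.22, 9.92 and 10.04 FPKM in CR. Again all CR libraries were higher, with a log2 fold change of 0.47 (SE 0.0831, adjusted p = 0.00524).

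Its close relative Kif13b pointed the other way. Kif13b was at 2.36, 2.10 and 2.45 FPKM in control and 1.80, 1.78 and 1.82 FPKM in CR, without overlap, but its log2 fold change of -0.24 did not pass (adjusted p = 0.0843; 0.00841 in limma-voom on reads). Exons of Kif13b overlap those of Hmbox1 on the opposite strand over 35.4% of their length, and Hmbox1 was at a mean of 7.23 FPKM, so reads of the 2 genes may not have been told apart. Kif13a over Kif13b was 2.94 ± 0.233 in control and 5.40 ± 0.237 in CR. Kif1c, at 10.7 ± 1.84 and 11.2 ± 0.547 FPKM (adjusted p = 0.608), and the early endosome motor Kif16b, at 1.56 ± 0.178 and 1.78 ± 0.203 FPKM (0.420), overlapped between the groups.

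Kifc2, a C-terminal motor found in neurons, was higher in CR. Its level was 28.9, 22.2 and 30.8 FPKM in control and 40.05, 44.6 and 45.9 FPKM in CR. All CR libraries were above all control libraries, and the log2 fold change was 0.67 (SE 0.117, limma adjusted p = 0.00513). Foxh1 overlaps 14.1% of its exon length on the opposite strand at a mean of 0.765 FPKM, far below Kifc2. Kifc3, a related C-terminal motor, was at 5.65 ± 0.431 FPKM in control and 6.30 ± 0.123 FPKM in CR and did not pass (adjusted p = 0.204). Among all 13 tested transport kinesins, 4 were higher and 2 lower, beside 17.7% and 16.2% of all genes, with a median log2 fold change of 0.10. CR replicate 3 was the highest of its group for 9 of the 13, as against 35.2% of all genes tested.

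Kif17, a dendritic and ciliary kinesin-2, was the fourteenth transport gene and lay below the expression threshold. Its level was 0.231, 0.213 and 0.258 FPKM in control and 0.556, 0.605 and 0.505 FPKM in CR, from 15 to 72 reads a library. All CR values were well above all control values. Without the filter on low values its log2 fold change was 0.33 (SE 0.0511, adjusted p = 0.00974), on a scale that understates the change of low genes.

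Of the kinesins that act on the neurite microtubules themselves, 2 of 5 were lower and none higher, a called share (40%) near the 33.9% of all genes. Kif21b, which pauses growing microtubule ends in neurons, was at 47.2, 46.1 and 42.8 FPKM in control and 38.4, 34.7 and 39.6 FPKM in CR. The groups did not overlap, and the log2 fold change was -0.27 (SE 0.064, limma adjusted p = 0.0167; 0.0541 without CR replicate 2). Kif26a, an atypical family member that binds microtubules without acting as a motor, was at 11.2, 9.97 and 7.55 FPKM in control and 6.40, 4.99 and 5.80 FPKM in CR. Its control libraries were widely spread but all lay above CR, with a log2 fold change of -0.64 (SE 0.141, adjusted p = 0.0119). Kif2a, which takes tubulin off microtubule ends and trims axon branches, was at 20.4, 22.1 and 22.1 FPKM in control and 19.2, 18.8 and 20.1 FPKM in CR and did not pass (adjusted p = 0.080; 0.0422 in limma-voom). Kif21a, the relative of Kif21b, was at 23.9 ± 1.03 and 23.9 ± 1.33 FPKM (adjusted p = 0.951), and Kif26b was at 7.24 ± 0.659 and 6.68 ± 0.541 FPKM (0.418). The summed level of the 5 was 104.1 to 109.4 FPKM in control and 88.7 to 97.9 FPKM in CR.

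Values of neuron markers moved beside these. Of 10 neuron markers 6 were higher and 1 lower in CR, beside 17.7% and 16.2% of all genes. The higher ones were led by the neurofilament genes Nefl (log2 fold change 2.12) and Nefm (0.81) and by Snap25 (0.44) and Gap43 (0.37, lost without any 1 of the CR libraries), and Dcx, a marker of young migrating neurons, was lower (-0.29). In all, 4 of the 10 pointed lower. Besides Dcx these were Tubb3 (-0.19, limma adjusted p = 0.0973), Map2 (-0.11, 0.117) and Rbfox3 (-0.03, 0.741), which did not pass. Summed FPKM of the 10 markers was 4008 to 4558 in control and 4598 to 4743 in CR. In bulk tissue, fewer cells of a type and less RNA per cell cannot be told apart, and the part of neuron number or type in the transport kinesin results was not tested.

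The 11 tested mitotic kinesins were low in every library, and none of them passed the test in either direction, beside 25.1% of all 4553 tested genes with a mean in the same range, 0.845 to 4.67 FPKM. At an unadjusted p under 0.05 there was 1 (Kif20a), limma-voom on reads called 0, and 10 of the 11 pointed lower in CR with a median log2 fold change of -0.15. That tally was not tested, and some of its signs were not steady. Across the alternatives log2 fold changes ran from -0.174 to 0.124 for Kif15 and from -0.178 to 0.120 for Kif18b. For Kif4a they ran from -0.110 to 0.045 and for Kifc1 from -0.208 to 0.037. Summed FPKM of the class was 38.4, 38.1 and 30.1 in control and 34.1, 27.6 and 31.0 in CR, so the groups overlapped through control replicate 3. That library was the lowest of the controls for 9 of the 11 genes, as against 33.0% of all genes tested. CR replicate 1 was the highest of its group for 8 of the 11, as against 29.7% of all genes, and CR replicate 2 the lowest for 8.

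Spindle builders and aligners overlapped or nearly so. Kif11, which pushes the spindle poles apart, was at 5.01, 5.36 and 4.13 FPKM in control and 4.60, 3.50 and 3.67 FPKM in CR (log2 fold change -0.25, limma adjusted p = 0.154). Kif15, which can stand in for it, was at 4.06, 4.43 and 2.59 FPKM in control and 4.02, 3.30 and 3.65 FPKM in CR, and it alone of the 11 did not point lower (0.01, adjusted p = 0.976; -0.01 in limma-voom and -0.02 with median-ratio scaling). Kifc1, which gathers spindle poles and whose promoter is shown above, was at 4.85 ± 0.376 and 4.49 ± 0.926 FPKM (adjusted p = 0.573). Kif18a, which limits chromosome movements at the metaphase plate, was at 2.48, 1.99 and 2.01 FPKM in control and 1.95, 1.56 and 1.496 FPKM in CR. Its groups did not overlap, but the adjusted p was 0.138. Kif18b (1.90 ± 0.608 and 1.78 ± 0.0764 FPKM), the microtubule depolymerase Kif2c (2.86 ± 0.544 and 2.63 ± 0.135 FPKM) and the chromosome-bound Kif4a (3.05 ± 0.434 and 2.97 ± 0.294 FPKM) had adjusted p values of 0.873, 0.651 and 0.891.

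The motors of cell separation did not pass either. Kif20a, which takes the Aurora B complex to the midzone, was at 5.66, 4.98 and 4.05 FPKM in control and 4.202, 3.07 and 3.66 FPKM in CR. Only control replicate 3 lay inside the CR range, and the log2 fold change of -0.34 did not pass (SE 0.134, limma adjusted p = 0.0851). Without that library it was -0.45 and passed (adjusted p = 0.0333), the only mitotic kinesin that passed under any alternative. Cdc23, at a mean of 24.7 FPKM, overlaps 8.71% of the exon length of Kif20a on the opposite strand, so some reads may not have been told apart. Kif23, the motor of centralspindlin, was at 4.74, 3.91 and 3.92 FPKM in control and 3.77, 3.25 and 3.73 FPKM in CR, without overlap (-0.18, adjusted p = 0.209). Kif20b and Kif14, both used in the last steps of cytokinesis, also did not overlap, at 2.07 ± 0.296 and 1.76 ± 0.0295 FPKM (adjusted p = 0.304) and at 0.950 ± 0.104 and 0.740 ± 0.0131 FPKM (0.258). These 4 genes without overlap (Kif23, Kif20b, Kif18a and Kif14) are 4 of 11, beside 50.3% of all genes.

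Among mitotic kinesins, 2 could not be measured well. Kif22, a chromosome arm motor whose promoter holds both motifs above, had 0 to 2 reads in each library. Of its 2415 bases of exon, 2287 (94.7%) are shared with Maz on the same strand, and Maz was at a mean of 42.6 FPKM, so what the value says of Kif22 was not tested. Kif4b, known as a copy of Kif4a without introns, had 0 to 6 reads, and reads of the near-identical pair may be split in counting.

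**Figure D5:**
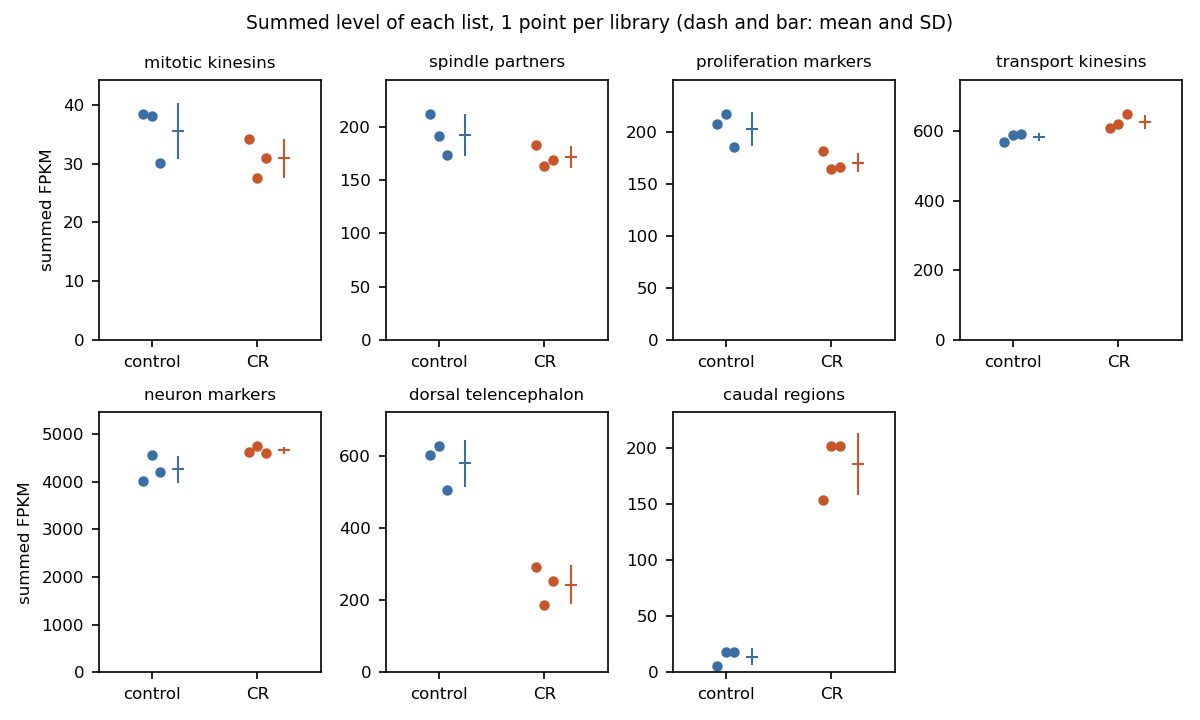
Summed FPKM of mitotic and transport kinesins, of their partner and marker lists and of the 2 regional lists, with 1 point per library and the mean with SD beside them (blue control, orange CR). Mitotic kinesins overlap between the groups (30.1 to 38.4 and 27.6 to 34.1), transport kinesins do not (569.7 to 591.4 and 610.0 to 649.1), and the regional lists lie far apart.

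The partners of the mitotic kinesins at the spindle and midbody mostly pointed lower too, and few passed the test. Of 29 tested, 1 was higher and 2 lower, beside 17.7% and 16.2% of all genes. In all, 26 of the 29 pointed lower, beside 7404 of all 15247 genes, and the median log2 fold change was -0.14. Lower were Nusap1 (-0.28, limma adjusted p = 0.0263) and Prc1 (-0.24, 0.0232), the bundler of the midzone that Kif4a works with. Cit, the gene of the citron kinase that Kif14 binds, was higher (0.59, adjusted p = 0.0131), at 3.34, 2.42 and 3.16 FPKM in control and 4.12, 5.28 and 5.60 FPKM in CR. These values are per gene, so they do not say which transcript of Cit was higher. Control replicate 3 was again the lowest control for 23 of the 29 genes. Their summed FPKM was 211.8, 191.2 and 173.0 in control and 182.8, 162.8 and 168.3 in CR. Prc1, Nusap1 and Cit no longer passed without CR replicate 2 or CR replicate 3, nor did Prc1 and Nusap1 without control replicate 1 or control replicate 2. Of 13 proliferation markers, 5 were lower and none higher, beside 16.2% and 17.7% of all genes, led by Mcm4 (-0.68), Ccne2 (-0.36), Mcm7 (-0.34) and Top2a (-0.33), with summed FPKM of 185.1 to 217.0 in control and 164.0 to 181.1 in CR, without overlap. Mcm4 kept its call with each library left out in turn, and the other 3 named did not. The part that the number of dividing cells has in the mitotic kinesin values was not tested.

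Light chains and adaptors link the transport kinesins to cargo, and 8 of 29 tested were higher and 3 lower, beside 17.7% and 16.2% of all genes, with a median log2 fold change of 0.03. Both common kinesin-1 light chains were higher, Klc1 at 73.8 ± 0.966 and 84.3 ± 1.084 FPKM (0.19, limma adjusted p = 0.00881) and Klc2 at 33.8 ± 2.89 and 40.1 ± 2.46 FPKM (0.24, 0.0371). The Klc2 call was lost without CR replicate 2 or 3 or control replicate 2 or 3. Hap1, a huntingtin-associated adaptor, rose most, from 12.9, 7.93 and 25.3 FPKM in control to 70.7, 81.7 and 78.0 FPKM in CR (2.39, adjusted p = 0.00226). The cargo linker Clstn3 was also higher (0.95, adjusted p = 0.00173), as were Mapk8ip1, Clstn1, Fez2 and Arl8b, the last 2 of which lost their call without CR replicate 2 or 3. The syntaxin linker Sybu (-0.56, adjusted p = 0.00787) and the mitochondrial adaptor Trak2 (-0.42, 0.00154) were lower, with Map7d1, which kept its call only without control replicate 2 among the left-out libraries. Kifap3, the subunit of kinesin-2 that holds cargo, was at 72.6, 83.0 and 76.2 FPKM in control and 73.4, 72.5 and 75.0 FPKM in CR and did not pass (adjusted p = 0.398).

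Cytoplasmic dynein moves in the direction opposite to that of most kinesins. Of 24 genes of cytoplasmic dynein, dynactin and their adaptors, 2 were higher and 5 lower, with a median log2 fold change of -0.000737. That is 29.2% called, near the 33.9% of all genes. Dync1i1, the neuronal intermediate chain, was lower (-0.71, limma adjusted p = 0.0044), as was the light chain Dynll1 (-0.40, 0.00561). Its sister light chain Dynll2 was higher (0.49, adjusted p = 0.00249), and so was the adaptor Hook1 (0.41, 0.012), whose call was lost without CR replicate 2 or CR replicate 3.

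Ciliary kinesins gave no call by limma among 5 tested, beside 33.9% of all genes, and 5 genes are too few to read that share. There was 1 at an unadjusted p under 0.05 and 1 in limma-voom, both Kif7. Kif7, which sits at the tip of the primary cilium and controls hedgehog signalling, was at 5.08, 3.59 and 3.66 FPKM in control and 2.94, 3.00 and 3.06 FPKM in CR. Its groups did not overlap, with control replicate 1 well above the rest, and the log2 fold change of -0.34 did not pass (SE 0.123, limma adjusted p = 0.0677; 0.0375 in limma-voom and 0.0379 with median-ratio scaling). Kif9, a motile cilium gene, was at 0.445, 0.511 and 0.451 FPKM in control and 0.688, 0.611 and 0.675 FPKM in CR, from 27 to 75 reads, also without overlap and without a call (adjusted p = 0.229). Genes without overlap were thus 2 of the 5 tested, beside 50.3% of all genes. Kif27 (2.26 ± 0.414 and 2.38 ± 0.287 FPKM), Kif19 (1.70 ± 0.476 and 1.67 ± 0.0971 FPKM) and Kif24 (0.589 ± 0.178 and 0.603 ± 0.212 FPKM) overlapped, as did Kif6 below the threshold (0.343 ± 0.0893 and 0.379 ± 0.0405 FPKM). Of 7 tested motile cilia markers 6 were higher, beside 17.7% of all genes, with summed FPKM of 18.5 to 28.1 in control and 40.2 to 49.1 in CR.

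The 2 genes in no class were at the limit of detection. Kif12 had 0 or 1 read and Kif28p 0 to 2 reads in each library, all under the level of 3 reads.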

How the data were processed

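The 6 libraries of polyadenylated newborn rat brain RNA, 3 control and 3 CR, were grouped by the labels. Libraries were made with a stranded QIAseq kit, per the labels' protocols. The tools named are STAR 2.7.10a, featureCounts 2.0.1, cutadapt 1.16, Trimmomatic 0.36 and Trim Galore 0.4.4, with build mRatBN7.2, per the submitters' processing notes; the strand setting was not given in the sources used here. The authors deposited FPKM per gene with exon length, per the file headers; 100% of values were whole multiples (within 0.05) of the worth of 1 read, which gave reads and depth.

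Genes whose mean reached 0.5 FPKM were fitted with limma 3.58.1 in R 4.3.3 on log2(FPKM + 1) with group as the only term, two-sided, with Benjamini-Hochberg adjustment over all tested genes and a threshold of 0.05. Fold changes (log2) give CR minus control, and the added 1 understates those of low genes. The fit was also run on counts simulated at these depths, with few changed genes and 1 fixed spread. That setting is simpler than these libraries and says nothing of their regional differences. Alternatives were a pseudocount of 0.1, a filter at 2 FPKM or none, median-ratio scaling, limma-voom on reads, the replicate number as a block, leaving out each library and, added after the data were seen, Y-linked RNA as a covariate. Every kinesin was accounted for, those called or at 5 FPKM or more with values, and the called members with the largest changes were named from each partner list. Promoters were those of RefSeq for GRCr8, used for letters only. The members and lists were chosen with earlier results of these data known. Oligodendrocyte (5 of 10 higher) and microglia (4 of 8 higher) markers were also counted, beside 17.7% of all genes higher. So were red cell (0 of 4 called) and liver and kidney (0 of 1 called) markers, beside 33.9% of all genes called, and these lists are too short to be read.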

Additional observations from a re-analysis of the deposited data

How the results depend on the processing

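The kinesin counts were steady under most settings. The number of higher kinesins was 3 to 5 and of lower kinesins 3 to 5, except for 7 lower in limma-voom on reads, which added Kif7, Kif2a and Kif13b. No kinesin called in the reported fit changed direction. Kif1a lost its call in 6 settings and Kif21b in 1. Leaving out 1 library gave 3210 to 5042 called genes of all, 3 to 4 higher and 3 to 5 lower kinesins, 0 to 1 lower mitotic kinesins, 0 to 1 higher and 0 to 8 lower spindle partners, 5 to 8 higher and 2 to 4 lower light chains and adaptors, and 1 to 3 higher and 2 to 4 lower genes of dynein and dynactin. Lower spindle partners numbered 1 with Y-linked RNA as a covariate, 5 in limma-voom, 4 with median-ratio scaling and 3 at 2 FPKM or more. Lower light chains and adaptors numbered 5, 5, 6 and 4 under the same settings. Higher dynein and dynactin genes numbered 3, in place of 2, with Y-linked RNA as a covariate, in limma-voom, at 2 FPKM or more and with the replicate block. The cause of these shifts was not tested. Deviations of libraries with the same replicate number had correlations of 0.02 to 0.05, and those of the other pairs were lower, at -0.043 to 0.017. All are small, and with 3 libraries a group they cannot settle whether the numbers pair the libraries. With a replicate block 4445 genes and 8 kinesins were called. The tested mitotic kinesins rest on 82 to 662 reads a library, and Kif22, Kif4b, Kif12 and Kif28p on too few for any comparison.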
